A study of Drosophila melanogaster with 4 samples.

Results

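The genes examined here make, use and recycle S-adenosylmethionine (SAM), the methyl donor of the cell, or carry the one-carbon units of folate. They were the 10 rows of the count table named Sam-S, Gnmt, Sardh, Ahcy, AhcyL1, AhcyL2, Cbs, Eip55E, Nmdmc and pug, chosen by their function around glycine N-methyltransferase (Gnmt), out of 13926 genes in all. They were chosen with earlier results of these data known. All 10 had enough counts to test. RNA came from the heads of male Drosophila melanogaster at day 50 of adult life, in 4 libraries of 20 pooled heads each, 2 per genotype: control siblings (+/+) and NelfA*/+. NelfA*/+ flies carry 1 copy of the KG09483 P-element insertion in Nelf-A, in heterozygous form, and both genotypes came from the same repeated backcross of a single mutant line to white-eyed males, so that the control siblings share the backcrossed background without the insertion. Polyadenylated RNA was sequenced, and the deposited values were whole read counts per gene.

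In this cycle SAM synthetase joins methionine to ATP, methyltransferases pass the methyl group of SAM to their substrates, and the S-adenosylhomocysteine (SAH) that remains is hydrolysed to homocysteine. Homocysteine is either methylated back to methionine or drawn into cysteine by transsulfuration, and folate enzymes supply and interconvert the one-carbon units. In flies Gnmt is known as an abundant fat body enzyme that removes surplus SAM by methylating glycine. The study turned to this pathway to ask what could change histone H3K9 methylation in old NelfA*/+ heads, since histone methyltransferases draw on SAM. Among the genes it examined for this, it reported Gnmt as downregulated in NelfA*/+ heads, together with a higher SAM concentration. Its figure of both used a t test, with more replicates per genotype than were sequenced. In heads of the white-eyed strain it also reported Gnmt rising and SAM falling with age. The counts used here are from the same study and the members were set around Gnmt. Lower Gnmt counts are therefore not an independent result.

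Counts on genes lay between 42985746 and 45172099 per library, and replicates were separate in their counts, beyond sampling noise (a chi-square of 73.5 per degree of freedom between control siblings and of 58.2 between NelfA*/+ libraries). Nelf-A itself, the mutated gene, had 3588 and 3505 reads in control siblings against 2398 and 2294 in NelfA*/+, a log2 fold change of -0.54 (SE 0.07, adjusted p = 0.0411 in edgeR's quasi-likelihood test). This call was lost with the replicate number as a block (adjusted p = 0.0537), without the filter on low counts (0.0584), and without control sibling replicate 1 (0.259) or 2 (0.145), with log2 fold changes between -0.59 and -0.50 in these 4 fits. Both NelfA*/+ libraries stood apart by digestive-tract genes, replicate 1 the most. Of the 16 gut markers listed, 10 passed the filter. Of these 10, 9 had both NelfA*/+ libraries above both control siblings, against 26.1% of all genes tested. Some of the 9, such as Jon65Aiv with 0 and 5 reads in control siblings, passed the filter only through NelfA*/+ counts. The direction of such genes was fixed beforehand. Amy-p, an amylase gene that made up most of the list's counts in control siblings, was lower (20916 and 17561 against 13608 and 15895 normalised counts). Without Amy-p the list summed to 606.7 and 628.9 normalised counts in control siblings, 39138 in NelfA*/+ replicate 1 and 4465 in replicate 2, so leaving out replicate 1 lowers this signal without removing it. The part of these transcripts in the members' values was not tested.

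Gnmt was the most abundant of the 10 transcripts per length of exon. Its level was 786.9 and 808.7 RPKM (counts scaled to the exonic length and to the normalised library size) in the control siblings against 634.1 and 439.0 RPKM in NelfA*/+. Sam-S followed at 205.4 and 186.3 RPKM in the control siblings against 149.9 and 144.6 RPKM in NelfA*/+. Next came pug at 101.0 ± 1.97 (SD, n = 2), Ahcy at 68.2 ± 6.36 (SD, n = 2) and Nmdmc at 56.0 ± 6.47 (SD, n = 2) RPKM in the control siblings. Eip55E at 45.4 ± 1.90 (SD, n = 2) and AhcyL1 at 45.1 ± 1.30 (SD, n = 2) RPKM were the only neighbours in this order whose control libraries overlapped. Cbs at 20.4 ± 1.02, Sardh at 11.4 ± 2.06 and AhcyL2 at 8.57 ± 0.27 (SD, n = 2 each) RPKM were the lowest. In NelfA*/+ Nmdmc (41.9 ± 0.07 RPKM, SD, n = 2) lay below AhcyL1 (43.4 ± 0.42 RPKM, SD, n = 2), and the libraries of Sardh (6.31 and 7.40 RPKM) overlapped those of AhcyL2 (8.05 and 6.92 RPKM).

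**Figure D1:**
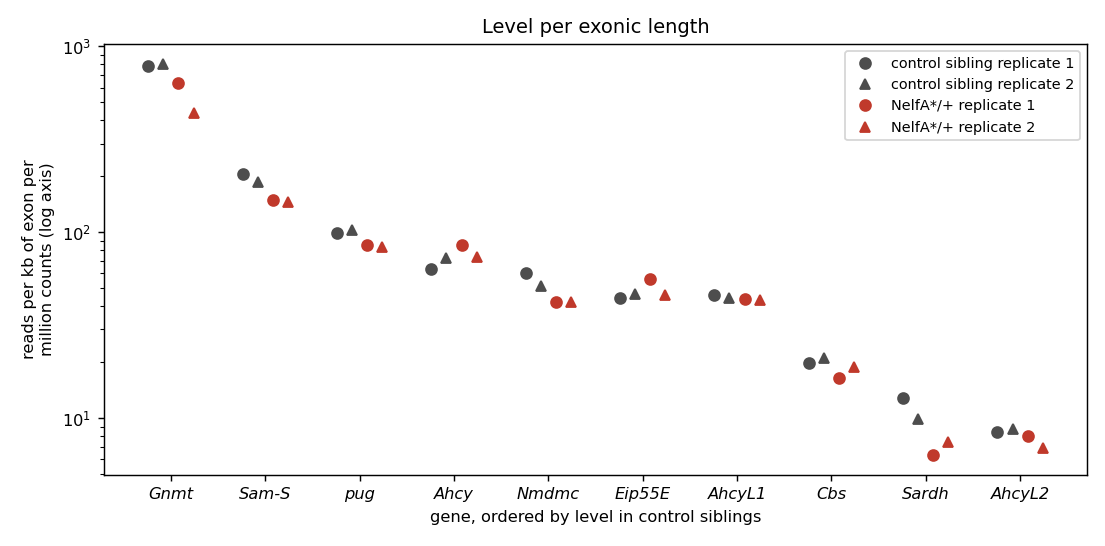
Level of each gene in RPKM (counts scaled to exonic length and library size, log axis), 1 point per library, with genes ordered by their mean in control siblings. Gnmt lies highest in all 4 libraries, between 439.0 and 808.7 RPKM, and Sardh and AhcyL2 lie lowest.

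At an adjusted p of 0.05 edgeR's quasi-likelihood test called 0 of the 10 genes, against 1.87% of the 9609 genes tested. At an unadjusted p of 0.05 it passed 5 of them, Sam-S, Gnmt, Sardh, Nmdmc and pug, all lower in NelfA*/+ heads, where 10.7% of all genes tested were lower at that level. The Wald test of DESeq2, the tool of the study's own methods, called the same 5 lower at an adjusted p between 0.00144 and 0.0398 and none higher, where it called 4.96% of all genes lower. In limma-voom 0 of the 10 passed. With NelfA*/+ replicate 1 left out edgeR called 1 member, Gnmt, where 2.35% of all genes were called lower, and with replicate 2 left out it called 1, Sardh, where 2.01% were. In 8 of the 10 both NelfA*/+ libraries lay below both control siblings and in 1, Ahcy, above, where 26% of all genes tested lay below and 26.1% above. The median log2 fold change of the 10 was -0.23, and that of all genes tested was 0.01. These tallies include Gnmt, which the study had already reported as lower, so its part in them is not an independent result. The calls thus rested on the choice of test: with 2 libraries per genotype, edgeR placed Sardh, its strongest case here, 525th among 9609 genes by p.

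**Figure D2:**
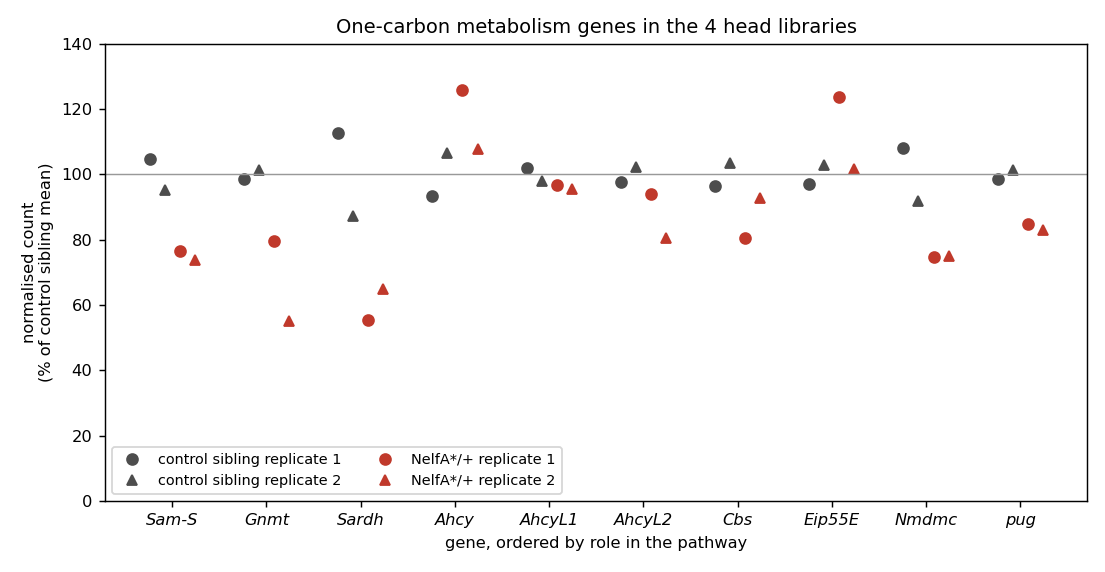
Normalised count of each gene as a percent of the control sibling mean, 1 point per library. Of the 10, 8 lie below both control siblings in both NelfA*/+ libraries, as did 26% of all genes tested. These are Sam-S, Gnmt, Sardh, AhcyL1, AhcyL2, Cbs, Nmdmc and pug. Ahcy reaches 125.8% and Eip55E 123.6% in NelfA*/+ replicate 1.

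Sam-S encodes SAM synthetase, the enzyme that makes SAM. It had 32468 and 30753 reads in control siblings against 23873 and 21924 in NelfA*/+. Both NelfA*/+ libraries were lower, at 76.5% and 73.8% of the control mean after normalisation. The mean normalised count was 31044 ± 2146 (SD, n = 2) for control siblings against 23340 ± 591.6 (SD, n = 2) for NelfA*/+, a log2 fold change of -0.41 (SE 0.10, adjusted p = 0.113 in edgeR and 0.00144 in DESeq2). With any 1 library left out, its log2 fold change stayed between -0.48 and -0.34. The gene lies on 2L from 106903 to 114432 (BDGP6, forward strand), with 12 annotated transcripts over 9 exon blocks, so a count per gene does not separate its isoforms.

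Gnmt encodes the enzyme that transfers the methyl group of SAM to glycine, giving sarcosine and SAH. It had 34594 and 37135 reads in control siblings against 28094 and 18515 in NelfA*/+. The control siblings were close to each other, both NelfA*/+ libraries were lower, and replicate 2 was far lower than replicate 1. After normalisation the NelfA*/+ counts were 27959 and 19357, against 34693 and 35654, or 79.5% and 55.0% of the control mean. The log2 fold change was -0.57 (SE 0.19, adjusted p = 0.198 in edgeR and 0.0237 in DESeq2). The NelfA*/+ replicates differed from each other by a log2 ratio of -0.53 (replicate 2 over 1), against 0.04 between the control siblings. Among the 6595 genes tested with a mean count above 500, 95% had a NelfA*/+ replicate difference of no more than 0.31 in size on that scale. The size of the difference therefore depended on the library. Without NelfA*/+ replicate 1, the library with the most gut transcripts, it was -0.86 (edgeR adjusted p = 0.0490), and without NelfA*/+ replicate 2 it was -0.33 (adjusted p = 0.484).

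Gnmt lies on 3R from 12674608 to 12676084 (forward strand) as 1 transcript of 4 exons, 8.55 Mb from Nelf-A, and 7.58% of its exonic length overlaps CG43630 on the opposite strand. Whether the counting used strand is not given in the sources used here. AhcyL2, pug and Nmdmc also lie on 3R, 4.24, 10.5 and 12.2 Mb from Nelf-A. The 5 genes at an unadjusted p under 0.05 were thus on 2L, 2R and 3R. Whether sequence linked to the insertion differs between the genotypes was not tested.

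Genes of the same library pattern as Gnmt were sought among 6597 other genes with a mean count above 500, by the Euclidean distance between log2 normalised counts centred on each gene's mean over the 4 libraries. The nearest were Lfg (distance 0.11), IM3 (0.11), a Bomanin immune peptide gene, and CG18107 (0.13). IM3, for example, stood at 97.2% and 102.8% of its control mean in the control siblings and at 74.6% and 57.2% in NelfA*/+. With 4 libraries such a likeness describes these pools only.

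Sardh encodes sarcosine dehydrogenase, which returns the sarcosine made by Gnmt to glycine. It had 1569 and 1267 reads in control siblings against 776 and 867 in NelfA*/+. Here too the genotypes did not overlap, and the order within NelfA*/+ was the reverse of that of Gnmt. The mean in NelfA*/+ was 60.2% of that in control siblings, the lowest share of the 10, and differed by a log2 fold change of -0.73 (SE 0.15, adjusted p = 0.0930 in edgeR and 0.00193 in DESeq2). It passed edgeR's test without NelfA*/+ replicate 2 (log2 fold change -0.85, adjusted p = 0.0188) and missed it without NelfA*/+ replicate 1 (-0.62, adjusted p = 0.0909). The control siblings differed by a log2 ratio of -0.37 (replicate 2 over 1). Sardh lies on 2R from 17753555 to 17756422 on the reverse strand, in 3 exons that overlap no other annotated exon.

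Ahcy encodes SAH hydrolase, the enzyme that removes SAH. It had 5994 and 7145 reads in control siblings against 8132 and 6630 in NelfA*/+. After normalisation these were 6011 and 6860 against 8093 and 6932, so that both NelfA*/+ libraries lay above the control siblings, replicate 2 only just. The log2 fold change was 0.22 (SE 0.11, adjusted p = 0.346 in edgeR and 0.409 in DESeq2), and 0.11 without NelfA*/+ replicate 1. AhcyL1 and AhcyL2 encode AHCY-like proteins, which in flies are known to counteract Ahcy. AhcyL1 had 6175 and 6192 reads in control siblings against 5906 and 5545 in NelfA*/+, with a log2 fold change of -0.06 (SE 0.06, edgeR adjusted p = 0.676), the smallest difference of the 10. AhcyL2 had 733 and 800 against 709 and 580, with a log2 fold change of -0.20 (SE 0.10, edgeR adjusted p = 0.356). Ahcy lies on X from 15450261 to 15453167 (forward strand), AhcyL1 on 3L from 2768466 to 2772325 (reverse) and AhcyL2 on 3R from 16978439 to 16982158 (reverse). None of these 3 genes passed edgeR, DESeq2 or limma-voom, and their differences were about as large as the differences between replicates.

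Ratios within a library do not depend on the scaling between libraries. The ratio of Ahcy to Sam-S in RPKM was 0.310 and 0.390 in the control siblings against 0.572 and 0.508 in NelfA*/+. That of Ahcy to Gnmt was 0.081 and 0.090 in the control siblings against 0.135 and 0.167 in NelfA*/+. Both ratios were higher in each NelfA*/+ library than in either control sibling. The ratio of Gnmt to Sam-S overlapped between the genotypes, at 3.83 and 4.34 in control siblings against 4.23 and 3.04 in NelfA*/+, as did that of Sardh to Gnmt, at 0.0163 and 0.0123 against 0.0099 and 0.0169. In an exact permutation test (two-sided) p was 0.333 for both Ahcy ratios, the smallest value that 2 libraries against 2 allow. It was 0.667 for Gnmt to Sam-S and 1 for Sardh to Gnmt in the same exact permutation test, and 6 ratios were computed in all.

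The transsulfuration genes lead from homocysteine to cysteine. Cbs, which encodes cystathionine beta-synthase, had 1922 and 2155 reads in control siblings against 1620 and 1773 in NelfA*/+ (log2 fold change -0.21, SE 0.10, edgeR adjusted p = 0.323), with a log2 fold change of -0.11 without NelfA*/+ replicate 1. Cbs lies on X from 21045138 to 21049096 (forward strand). Eip55E, which encodes cystathionine gamma-lyase and is now named Cth, had 2890 and 3203 against 3710 and 2904 (log2 fold change 0.17, SE 0.11, edgeR adjusted p = 0.466). Located on 2R from 18627918 to 18629395 (forward strand), it was the only member whose genotypes overlapped, and without NelfA*/+ replicate 1 its log2 fold change was 0.02. The ratio of Eip55E to Cbs in RPKM was 2.24 and 2.21 in the control siblings against 3.41 and 2.44 in NelfA*/+ (exact permutation test, two-sided, p = 0.333, again the smallest possible).

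The folate members were both lower in NelfA*/+ libraries. Nmdmc encodes the mitochondrial methylenetetrahydrofolate dehydrogenase and cyclohydrolase, and had 4077 and 3615 reads in control siblings against 2840 and 2710 in NelfA*/+. The NelfA*/+ libraries were nearly equal after normalisation, at 74.8% and 75.0% of the control mean, while the control siblings differed by a log2 ratio of -0.24. The log2 fold change was -0.42 (SE 0.10, adjusted p = 0.111 in edgeR and 0.0179 in DESeq2). pug encodes the cytosolic enzyme that interconverts the one-carbon forms of folate, and had 15397 and 16532 raw counts against 13347 and 12420. The genotypes stood apart, at 98.6% and 101.4% of the control mean against 84.8% and 82.9%, and the log2 fold change was -0.25 (SE 0.08, adjusted p = 0.167 in edgeR and 0.0398 in DESeq2). Both lie on 3R, Nmdmc from 9042508 to 9050555 (reverse strand) and pug from 10696534 to 10703316 (forward), and 4.48% of the exonic length of pug overlaps CG14683 and CG46459. The ratio of Nmdmc to pug in RPKM was 0.608 and 0.502 in the control siblings against 0.489 and 0.501 in NelfA*/+ (exact permutation test, two-sided, p = 0.333).

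**Figure D3:**
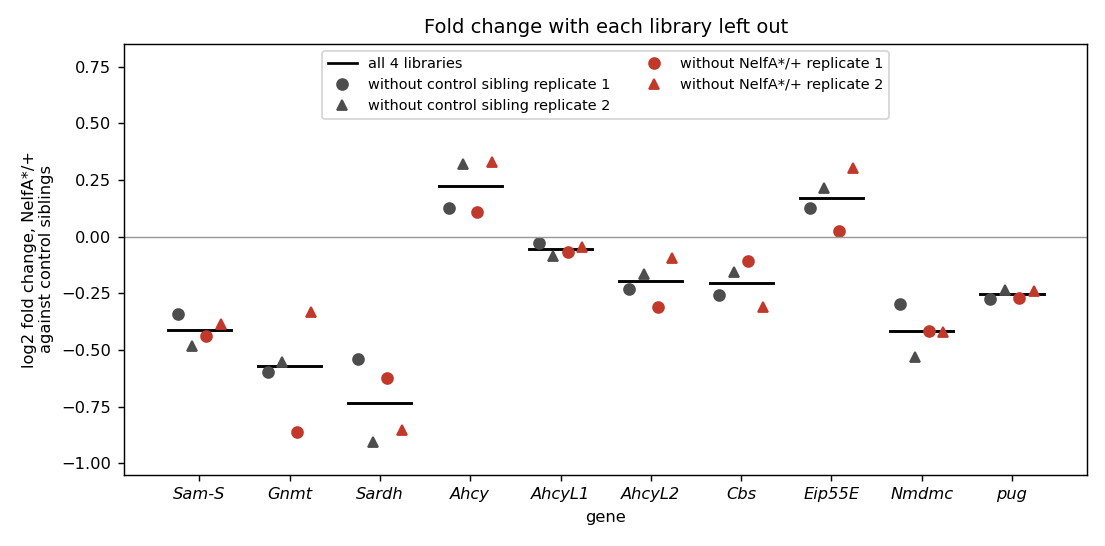
Log2 fold change of each gene (NelfA*/+ against control siblings, edgeR) in all 4 libraries (black line) and with each library left out (points). No gene changes sign, which was nearly fixed beforehand for all but Eip55E, since their genotypes do not overlap. Gnmt moves most, from -0.86 without NelfA*/+ replicate 1 to -0.33 without NelfA*/+ replicate 2.

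Other genes of the pathway were taken from a list of 27, placed there by general knowledge of the pathway, since the annotation used gives no function for names that begin with CG. Of these, 4 are listed at 0 in every library (CG8026, CG6415, aay and CG11134), which may not be measurements. Ts was below the filter with at most 11 counts, and 22 were tested. In edgeR's test 0 passed an adjusted p of 0.05, 5 were lower and 4 higher at an unadjusted p of 0.05 (10.7% and 9.6% of all genes tested), and the median log2 fold change was -0.04. In DESeq2's test 2 were lower and 1 higher at an adjusted p of 0.05 (4.96% and 3.7% of all genes). Limma-voom called 0. The genotypes did not overlap in 7 that were lower and 6 that were higher, of 22, where 26% and 26.1% of all genes did so.

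The 2 tested genes listed under serine synthesis, which feeds one-carbon units into folate, were lower. CG6287 had 16735 and 18534 reads in control siblings against 14131 and 12616 in NelfA*/+ (log2 fold change -0.34, SE 0.08, adjusted p = 0.120 in edgeR and 0.00677 in DESeq2). CG11899 had 4411 and 5222 against 3936 and 3510 (log2 fold change -0.31, edgeR adjusted p = 0.148), and missed the threshold in DESeq2 too (0.0745). Their libraries did not overlap between genotypes, as for Shmt, serine hydroxymethyltransferase, at 9486 and 10191 against 8521 and 8021 raw counts (log2 fold change -0.19, edgeR adjusted p = 0.210). Higher values were found in CG8665, listed under folate, with 4048 and 3520 reads in control siblings against 4831 and 5033 in NelfA*/+ (log2 fold change 0.44, SE 0.11, adjusted p = 0.125 in edgeR and 0.0226 in DESeq2). CG7560, listed under remethylation, had 477 and 475 against 644 and 552 (log2 fold change 0.38, SE 0.10, adjusted p = 0.125 in edgeR and 0.119 in DESeq2). CG3999, listed under glycine cleavage, had 2107 and 1720 against 961 and 1327 (log2 fold change -0.68, adjusted p = 0.181 in edgeR and 0.0292 in DESeq2). It passed edgeR without NelfA*/+ replicate 2 (log2 fold change -0.98, adjusted p = 0.00883), but not without NelfA*/+ replicate 1 (-0.44, 0.216) or without control sibling replicate 1 (-0.50, 0.429) or 2 (-0.85, 0.310). Shmt and CG3999 were chosen after their values were seen. Of the 5 polyamine genes, 3 lay higher without overlap, against 26.1% of all genes tested, and 2 overlapped. Their median log2 fold change was 0.22, and edgeR and DESeq2 called 0. Among them SamDC, whose enzyme decarboxylates SAM for polyamine synthesis, differed by a log2 fold change of -0.02 (edgeR adjusted p = 0.932) and SpdS, spermidine synthase, by 0.31 (0.149). Gclc and Gclm, the subunits of the enzyme that starts glutathione synthesis, differed by 0.01 (0.969) and 0.29 (0.552), and Gclm by 0.08 without NelfA*/+ replicate 1. SamDC, SpdS, Gclc and Gclm were also chosen after their values were seen. The value of SpdS is uncertain, since 70.9% of its exonic length overlaps Scm and asRNA:CR45053 on the opposite strand.

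**Figure D4:**
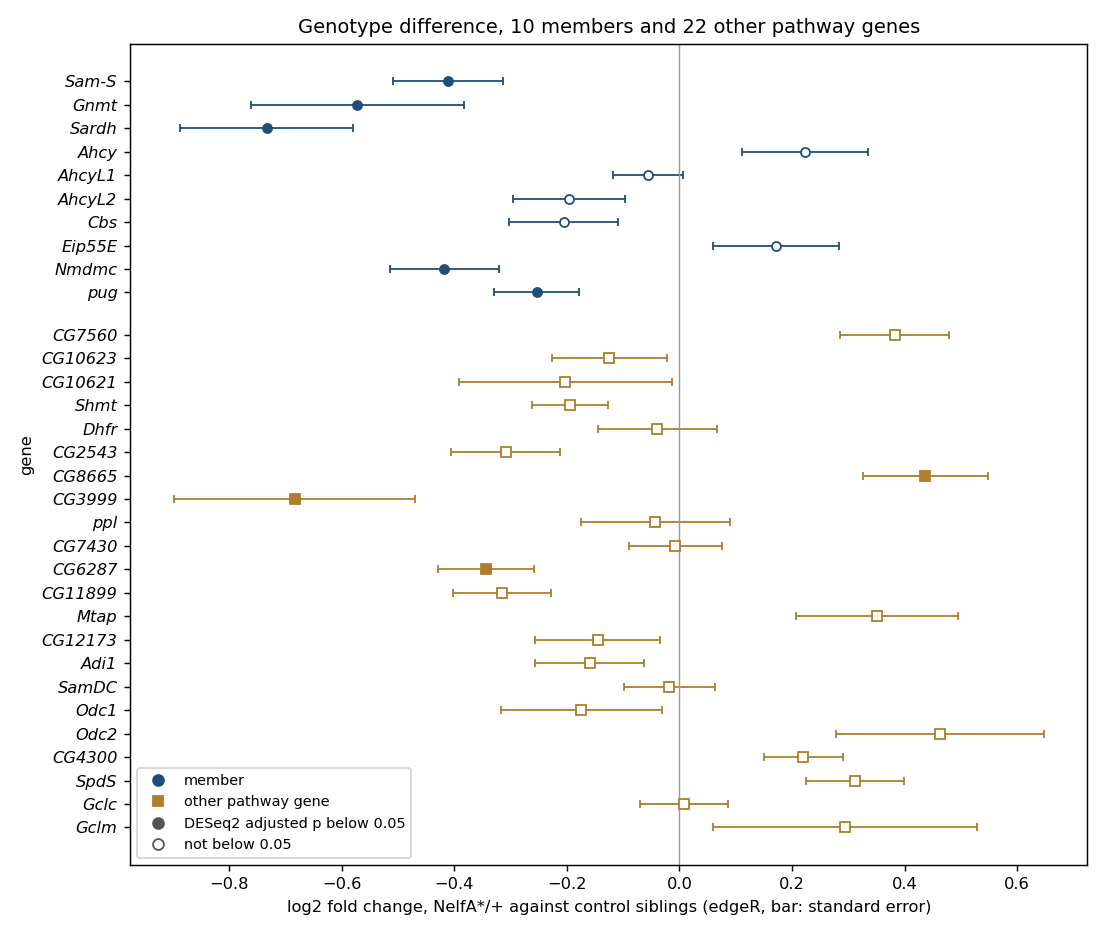
Log2 fold change with its standard error (edgeR, NelfA*/+ against control siblings) of the 10 members (circles) and the 22 other pathway genes tested (squares), filled where DESeq2 gave an adjusted p below 0.05. The 5 filled members, Sam-S, Gnmt, Sardh, Nmdmc and pug, lie between -0.73 and -0.25, and the filled squares are CG8665, CG3999 and CG6287.

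Enzymes that use SAM, with the H3K9 demethylases, made up a second list of 12 genes. Su(var)3-9 and JHDM2 (now Kdm3) are listed at 0 in all 4 libraries, and 10 were tested. These zeros may not be measurements, and their origin was not tested. The study contrasted Su(var)3-9, Kdm4A and Kdm4B with the significant decrease of Gnmt. For Su(var)3-9 these counts give no usable value. In all, 2463 genes of the table are at 0 throughout. Of the exonic length of Su(var)3-9 and JHDM2, 14.8% and 15.9% overlaps a neighbour on the same strand. For aay, CG6415 and CG11134, also at 0, this overlap is 0%. In edgeR's test 0 passed at an adjusted p of 0.05 and 0 at an unadjusted p of 0.05, and DESeq2 and limma-voom called 0. The median log2 fold change was -0.05, and the 10 lay between -0.17 and 0.26. The smallest p was that of egg, an H3K9 methyltransferase, with 1102 and 1123 reads in control siblings against 1000 and 974 in NelfA*/+ (log2 fold change -0.12, SE 0.07, edgeR adjusted p = 0.399). It was followed by Ime4 and Mettl14, the RNA adenosine methyltransferase and its partner, at 0.26 and 0.16, and by Pcmt, protein isoaspartate methyltransferase, at -0.11 (edgeR adjusted p between 0.399 and 0.548). The H3K9 methyltransferase G9a differed by 0.08, and the demethylases Kdm4A and Kdm4B by -0.06 and 0.06 (edgeR adjusted p between 0.755 and 0.837). The value of Kdm4B is uncertain, since 84.8% of its exonic length overlaps CG17724 and seq on the same strand.

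Markers of the fat body, where Gnmt is known to be abundant, were read in the same libraries. Of the 11 listed, Adh, of whose exonic length 93.9% overlaps Adhr, is listed at 0, and 10 were tested. Of these, 9 had a log2 fold change below 0, as did 47.7% of all genes, and 8 were lower with no overlap between the genotypes, against 26% of all genes. Fbp1, with at most 16 counts, was higher, apolpp overlapped, and the median log2 fold change was -0.47. Yp2 had few counts and varied widely between the control siblings, with 173 and 53 reads. The value of Yp1 is uncertain, since 54.3% of its exonic length overlaps asRNA:CR45601 on the opposite strand. All heads came from males, and the part of sex-biased expression in Yp1, Yp2 and fit was not tested. Only Lsp1beta, a larval serum protein gene, fell in edgeR's test, from 3589 and 3836 raw counts to 1323 and 1371 (log2 fold change -1.40, adjusted p = 0.00772), a call that was lost without control sibling replicate 1 (adjusted p = 0.106) or 2 (0.0994). DESeq2 called 6 of the markers lower, against 4.96% of all genes. The summed normalised count of the list was 308880 and 245240 in the control siblings against 232020 and 247680 in NelfA*/+, and so overlapped, with apolpp making up most of it. Lsp2, the serum protein gene of the adult fat body, differed by a log2 fold change of -0.16 (edgeR adjusted p = 0.316). This value is uncertain too, since 84.6% of its exonic length overlaps asRNA:CR11538 on the opposite strand. The part of the fat body markers in the lower counts of Gnmt, Sardh, Sam-S, Nmdmc and pug was not tested. In bulk heads fewer cells of a type and less RNA per cell cannot be told apart.

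**Figure D5:**
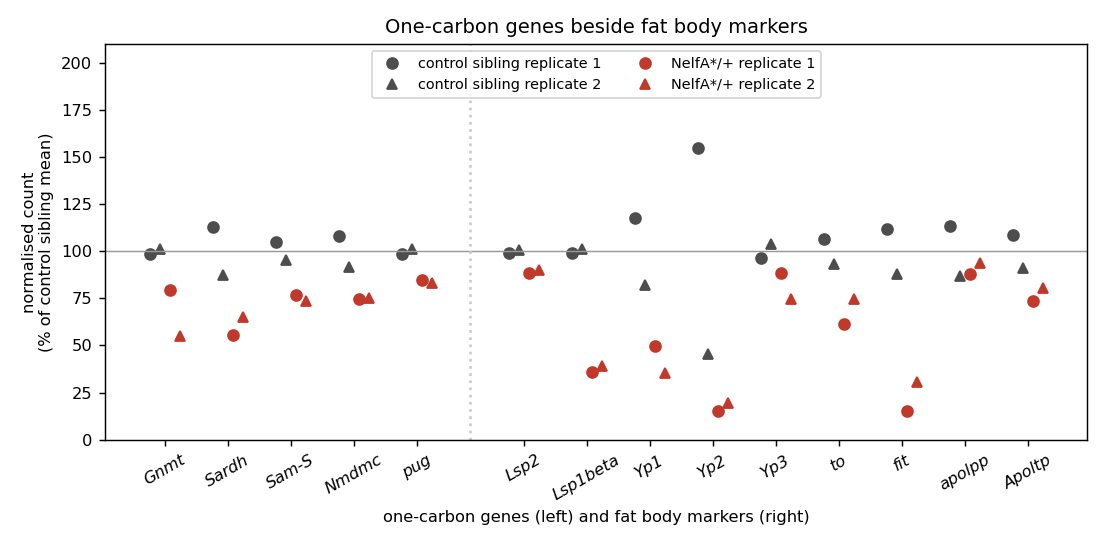
Normalised count as a percent of the control sibling mean for the 5 one-carbon genes with an unadjusted p under 0.05 and for the fat body markers tested that had a control mean above 100, 1 point per library. Lsp1beta, Yp1, Yp2 and fit lie further below the control siblings than Gnmt or Sardh do, while Lsp2 and apolpp lie near them. The control siblings of Yp2 lie far apart, at 154.6% and 45.4%.

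Markers of head tissue were abundant: ninaE, the main rhodopsin, had between 1587824 and 1947169 raw counts, nSyb between 72792 and 91065 and Mhc between 39868 and 47488. After normalisation each of them was higher in both NelfA*/+ libraries than in either control sibling (edgeR adjusted p between 0.256 and 0.773). Act57B, another muscle marker, was lower without overlap (edgeR adjusted p = 0.326). Photoreceptor markers summed to 2361500 and 2486900 normalised counts in the control siblings against 2802400 and 2521600 in NelfA*/+, and Arr2, a major arrestin of photoreceptors, is listed at 0, which may not be a measurement either. Neuron markers summed to 181380 and 133570 against 173280 and 194600. The median log2 fold change of 4 tested was 0.16, and elav, a defining neuronal gene, had at most 8 counts. The photoreceptor sums did not overlap between the genotypes, the neuron sums did, and both varied between replicates of one genotype. Of 9 photoreceptor markers tested, 2 lay lower and 3 higher without overlap, against 26% and 26.1% of all genes. Rh3 was higher (log2 fold change 0.70, adjusted p = 0.0625 in edgeR and 1.73e-09 in DESeq2). Rh5 was lower (-0.79, adjusted p = 0.0537 in edgeR and 1.39e-06 in DESeq2). Rh3, Rh5 and Act57B were chosen after their values were seen. The part of these markers in the members' values was not tested.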

How the data were processed

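By the methods and the submitters' processing notes, the authors trimmed reads (Trim Galore), aligned them with STAR 2.5 to BDGP6 and counted them with HTSeq; the deposited counts are whole reads per gene without normalization, and the strand setting is not given in the sources used here. HTSeq's summary lines, between 17.2% and 17.6% of each library's reads, were left out. The authors' table of their own DESeq2 comparison (fold changes and p-values) was not used.

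Libraries were grouped by the labels. Counts were filtered (filterByExpr), normalized (TMM) and compared with the quasi-likelihood test of edgeR 4.0.16 in R 4.3.3, two-sided, with Benjamini-Hochberg adjustment over 9609 genes. The standard error is the log2 fold change over the square root of F. Alternatives were DESeq2 1.42.0, limma-voom (limma 3.58.1), other scaling, filters and dispersions, a replicate block and leaving out each library. On simulated counts with 200 changed genes at equal dispersion, the edgeR steps recovered 200 with 8 false calls, which is no error rate for real counts. The planted changes were larger than those of all members and lay in well-counted genes. The simulated dispersion was also below that of these data. Recovery of changes of the members' size was therefore not tested. P-values set the genotype difference against the spread between 2 pools per genotype, with dispersions moderated over all genes tested.

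The members and lists were chosen with earlier results of these data known. From the wider list, genes past the threshold were to be named, or else the 4 with the smallest p; 4 likewise from the methyltransferase list, and the 3 nearest to Gnmt. Other genes were chosen after their values were seen. Exonic lengths and positions are from Ensembl release 115, a later annotation of the same assembly. No sequence was analysed here.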

Additional observations from a re-analysis of the deposited data

How the results depend on the processing

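All 10 members kept the sign of their log2 fold change in all 13 alternatives, and 120 of 130 refits stayed on the same side of an adjusted p of 0.05. Members called, 0 with edgeR, numbered 5 with DESeq2 and 3 with the crossed replicate block, which called 8.29% of all genes, and between 0 and 1 with a library left out. In the wider list 0 became 3 with DESeq2 and 4 with the crossed block, and between 0 and 1 with a library left out. Genes called among all, 180 with edgeR, numbered 833 with DESeq2 (356 higher, 477 lower), 82 without the filter, 359 with robust dispersions, 118 with limma-voom, 297 with the replicate block (155 higher, 142 lower) and 797 with the crossed block. Leaving out a library gave between 2 (without either control sibling) and 554 (without NelfA*/+ replicate 2), and 412 without NelfA*/+ replicate 1; the lone library of a genotype was assumed to vary like the other genotype. With library size alone 257 genes were called, 79 higher and 178 lower. The log2 fold change of Nelf-A was -0.54 without the filter and with the replicate block, where it no longer passed, and between -0.59 and -0.50 with a library left out. The replicate numbers share only a number: same-numbered deviations correlated at -0.14 over 8398 genes with a mean count above 100, and the crossed pairing was added after seeing the data. With the replicate block 0 members were called. The cause of these changes was not tested. The lowest raw count of a member in any library was 580. All alternatives refit the same 4 libraries. For every member but Eip55E the genotypes did not overlap, so leaving out 1 library could hardly reverse the sign.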
